A study of Danio rerio with 12 samples.

Results

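The regions described here carried a Sox3 peak in both tp63 mutant libraries at 36 hours post-fertilization (hpf) and in no other peak list of the series. The 4 Sox3 lists of 36 hpf were joined wherever their peaks overlapped by 1 bp or more, which gave 102840 regions, and 13367 of them (13.0%) held a peak in both mutant lists and in neither wild-type (WT) list. Of these mutant-only regions, 5675 also overlapped no Sox3 peak of 80% of epiboly or 24 hpf and no peak of the 6 p63 lists. They are called newly listed regions below, since they are defined by presence in lists and a missing peak is not evidence that Sox3 was absent. Newly listed regions made up 5.52% of all merged regions and 42.5% of the mutant-only ones.

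p63 is a transcription factor of the p53 family that directs epidermal development. Sox3 belongs to the SoxB1 group of transcription factors, which bind DNA through an HMG box and are expressed in neural progenitors. In the early ectoderm both fates arise from neighbouring cells, and the study compared Sox3 occupancy in embryos with and without p63.

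Binding was profiled in pools of whole zebrafish embryos by ChIPmentation, in which the Tn5 transposase adds sequencing adaptors to immunoprecipitated chromatin. The groups were Sox3 in tp63-/- mutants at 36 hpf (2 libraries), Sox3 in WT embryos at 36 hpf (2), 24 hpf (1) and 80% of epiboly (1), and p63 in WT embryos at each of these 3 stages (2 libraries each). The mutants carry a CRISPR/Cas9 deletion that stops all tp63 isoforms, came from heterozygous parents and were recognised by their phenotype. Far fewer embryos went into each mutant Sox3 library than into a WT one. The early filters rest on single Sox3 libraries. In whole embryos, more cells with Sox3 at a region and more Sox3 per cell cannot be told apart.

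List length and the tags behind the peak calls differed between the genotypes. The mutant lists held 81578 and 59786 peaks from 14.1 and 12.9 M tags (M, mega), against 51504 and 29082 peaks from 7.97 and 5.75 M tags in the WT lists. Tags are the units that the peak caller counted, estimated from the background of the deposited peaks, and not sequenced or aligned reads. The read totals that the study lists do not follow these estimates across libraries and do not separate the genotypes as the estimates do; depth below means estimated tags. In these 4 libraries the estimated tags and the genotype cannot be told apart. Counts at equal list length and with tags scaled to the shallowest library are therefore given beside the main ones.

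The same rule with the genotypes exchanged found 262 WT-only regions (0.255% of all), of which 153 (58.4%) had no peak in another list. The mutant rule therefore returned 5675 regions and its mirror 153. When only the 29082 strongest peaks of each list were kept, the counts were 550 newly listed and 360 mirror regions, and 371 of the 550 overlapped one of the 5675. When every list was scaled to the depth of the shallowest library, they were 3887 and 206, and 3870 of the 3887 overlapped one of the 5675. That setting kept 65456 and 53169 peaks of mutant replicates 1 and 2, and 51102 and 29082 of WT replicates 1 and 2. The scaling added no sampling noise, so these are not counts of peaks called at equal depth. Each scaled peak had to meet the threshold of its own list. This threshold was laxer in the mutant lists (−log10 p of 4.78 and 4.86) than in the WT lists (4.92 and 5.17). With a −log10 q of at least 10 asked of every list the counts were 6456 and 28, and 1922 of the 6456 overlapped one of the 5675. That cut was not adjusted for depth. It also removed weaker peaks from the WT, p63 and earlier Sox3 lists, so a region could count as newly listed because such a peak was dropped. Asked of the mutant lists only, the counts were 1924 and 324. This cut and the equal list length dropped mutant peaks, so a region could count as a mirror region because such a peak was gone. Equal length also dropped peaks of WT replicate 1, which could make a region newly listed. The mutant count was above the mirror count under each of these settings, by least when the lists were equally long. Leaving out a library left 1 list to satisfy for its genotype: the counts were 11646 and 342 without mutant replicate 1, 25135 and 230 without mutant replicate 2, 8240 and 1044 without WT replicate 1, and 6455 and 8701 without WT replicate 2, the only one of these settings in which the mirror was larger. No test was run on any of these counts, since the lists that chose the regions are the ones compared.

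The Sox3 peaks of 24 hpf removed most of the mutant-only regions that were left out. Sox3 at 24 hpf overlapped 6637 of the 13367 regions, p63 in any list 4586 and Sox3 at 80% of epiboly 472. Taken in order, the filters left 12895 regions without Sox3 at 80% of epiboly, 6649 also without Sox3 at 24 hpf and 5675 also without p63. Among the p63 lists, those of 80% of epiboly overlapped 2801 and 3308 mutant-only regions, those of 24 hpf 711 and 1497 and those of 36 hpf 525 and 267. In the same order these lists held 36652 and 42668, 14707 and 25659, and 16993 and 9538 peaks. The Sox3 lists of 24 hpf and 80% of epiboly held 67886 and 6045. The overlaps were not corrected for list length and do not give a preference for a stage. Of the 974 regions that fell out through p63 alone, 591 (60.7%) had a peak in only 1 of the 6 p63 lists. Having no peak in another list was not particular to mutant-only regions. It held for 47.8% of all merged regions, 8.52% of the 22511 regions in all 4 lists, 73.3% of the 26038 found in mutant replicate 1 alone and 65.2% of the 8505 found in mutant replicate 2 alone.

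**Figure D1:**
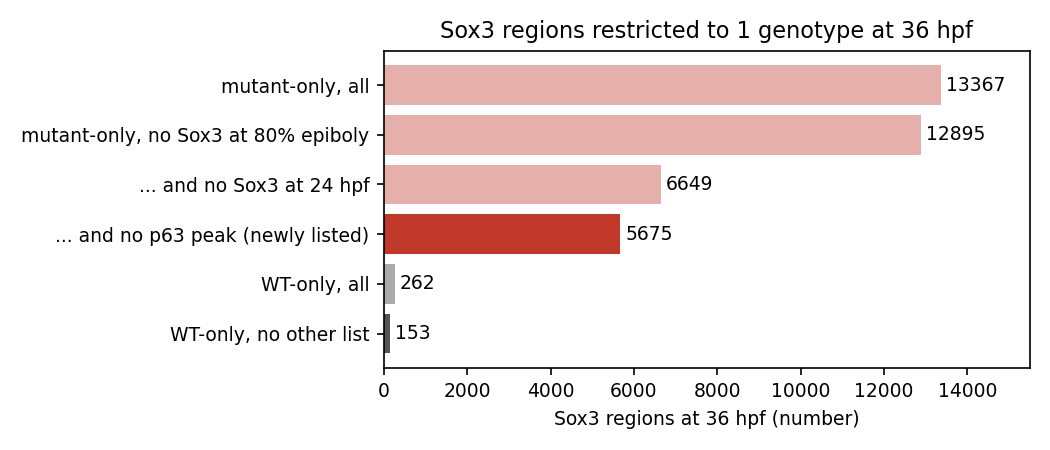
Number of Sox3 regions of 36 hpf restricted to 1 genotype. The bars give mutant-only regions before and after each filter, ending at 5675 newly listed regions, and below them all WT-only regions (262) and those with no peak in another list (153).

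In the lists as deposited, newly listed regions lay in the lower and middle ranks. Peaks were ranked by −log10 q, the significance of the summit against local background, as a percentile within their own list. The median percentile was 43.9 in mutant replicate 1 and 29.0 in mutant replicate 2. Regions found under other settings kept their percentile of the deposited list. With equal list lengths the medians were 73.9 and 63.8, and with a −log10 q of at least 10 in every list 61.6 and 51.1. Both settings drop the weaker peaks of the mutant lists, which raises these medians by construction, so they do not show a higher rank. Regions found without mutant replicate 2 had a median of 23.1 in mutant replicate 1. Mutant-only regions with earlier Sox3 but no p63 had medians of 50.3 and 34.0, and those with a p63 peak 51.0 and 36.8. Regions in all 4 lists had medians of 85.5 and 80.4. Of the newly listed regions, 3127 (55.1%) fell in the lower 50% of both mutant lists, 716 (12.6%) in the upper 50% of both and 2 in the top 10% of both. As in the other mutant-only regions, the ranks in the 2 mutant libraries followed each other more loosely than in regions of all 4 lists. The Spearman rho was 0.38 over 5675 regions, 0.44 in mutant-only regions with p63 and 0.42 in those with earlier Sox3 but no p63. Over the 22511 regions in all 4 lists it was 0.90. By fold enrichment in place of −log10 q, rho was 0.52, 0.57, 0.56 and 0.86 in the same order. The regions share the libraries and their depth, so this is a description.

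**Figure D2:**
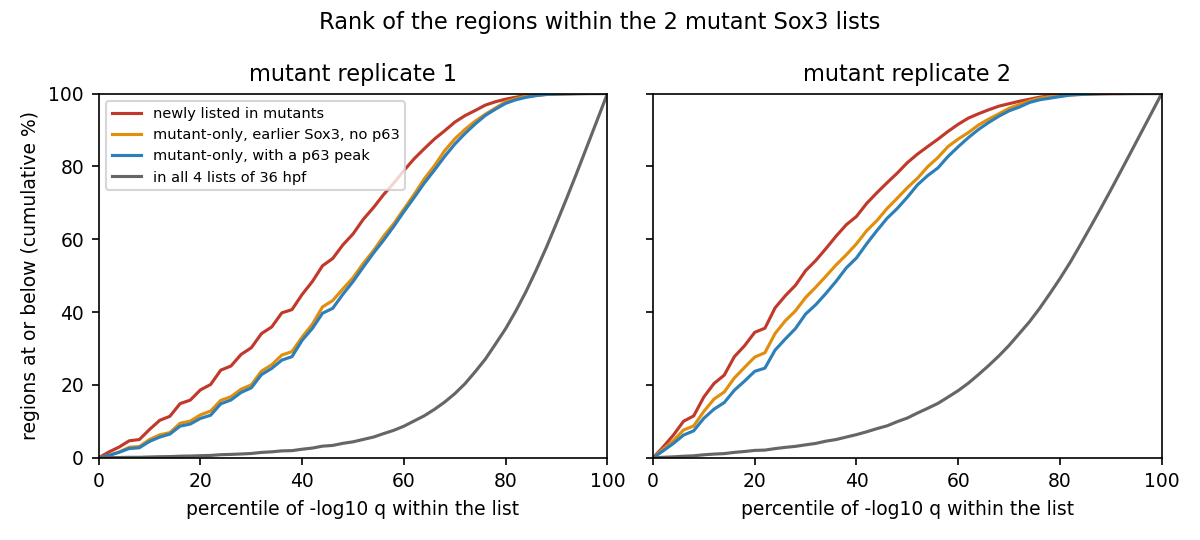
Cumulative share of regions (%) against the percentile of −log10 q within the list, for mutant replicate 1 (left) and replicate 2 (right). Newly listed regions (red) lie furthest left, with medians of 43.9 and 29.0, and regions in all 4 lists (grey) furthest right, with medians of 85.5 and 80.4.

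The share of each mutant list taken up by newly listed regions was lowest among its strongest peaks. In mutant replicate 1 they held 5.55% of the peaks of the weakest decile, 12.04% of the sixth and 0.0858% of the strongest. In the shorter list of mutant replicate 2 they held 16.1% of the weakest decile, 17.0% of the second and 0.0502% of the strongest. Within the mutant-only peaks themselves, newly listed regions accounted for 54.7% in the weakest decile of replicate 1 and 30.1% in the eighth, and for 51.0% in the weakest decile of replicate 2 and 30.9% in the seventh. Up to those deciles, stronger mutant-only peaks coincided with an earlier Sox3 or a p63 peak in a larger share of cases than weaker ones. Above them few mutant-only peaks were left.

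**Figure D3:**
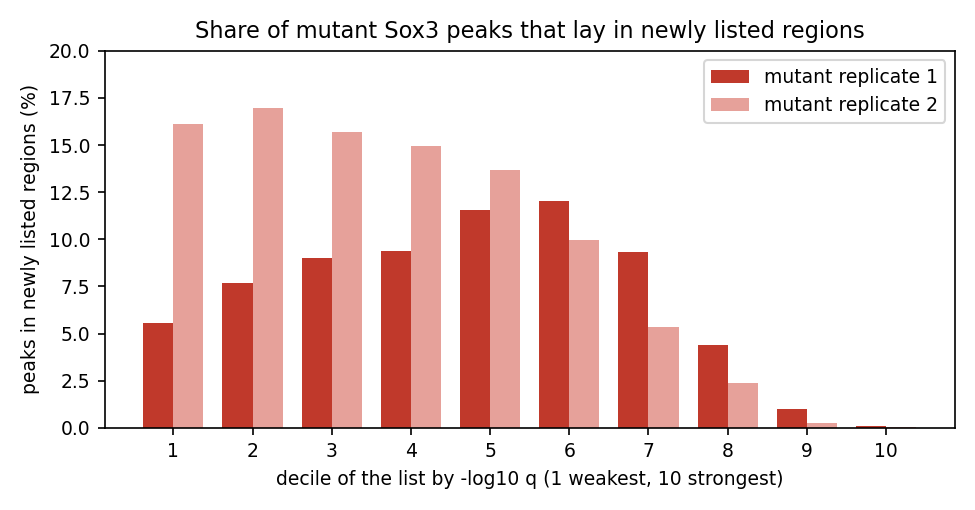
Share of Sox3 peaks (%) that lay in newly listed regions, by decile of the list from weakest (1) to strongest (10), for mutant replicates 1 and 2. The share peaks at 12.04% in the sixth decile of replicate 1 and at 17.0% in the second decile of replicate 2, and falls below 1% in the ninth and strongest deciles of both.

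In tag counts the regions were modest, which the rule also favours. The summit pileup, the number of tags that cover the summit, had a median of 18 in mutant replicate 1 and 16 in mutant replicate 2, and 52 and 46 in regions of all 4 lists. The fold enrichment of the summit over local background had medians of 6.63 and 6.57. It reached 5 in 86.9% and 85.6% of the regions, against 88.8% and 91.2% of all peaks of the mutant lists. A fold of 10 was reached in 9.07% and 6.52% of the regions. Per M tags of the library, the median summit held 1.27 and 1.24 tags, with lowest values of 0.566 and 0.619. The WT peaks with fewest tags had 6 in either list, or 0.753 and 1.04 per M in WT replicates 1 and 2, and the median WT peak had 1.76 and 2.78 per M. The median newly listed summit thus lay between the weakest and the median peak of either WT list. In both mutant libraries it was just above the 10th percentile of WT replicate 1 (1.13 per M) and below that of WT replicate 2 (1.57 per M). The local background was above the genome-wide level in 66.7% and 67.2% of the newly listed regions, where more tags are needed to pass. This was not particular to them: the shares were 66.5% and 68.7% in all mutant-only regions and 92.7% and 93.8% in regions of all 4 lists. Of all peaks, 25713 of 81578 in mutant replicate 1 and 13356 of 59786 in mutant replicate 2 sat at the genome-wide level.

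Scaled to the depth of WT replicate 1, the mutant peak stayed above the threshold in 95.6% of newly listed regions for mutant replicate 1 and 97.3% for mutant replicate 2. Scaled to WT replicate 2, the shares were 72.5% and 71.2%. Both mutant peaks passed at both WT depths in 3141 regions (55.3%), against 65.8% of mutant-only regions with earlier Sox3 and no p63, 69.2% of those with a p63 peak and 97.6% of regions in all 4 lists. In 16 regions (0.282%) neither peak passed at either depth. In the other 2518 regions some of these passes held and others did not. The scaling multiplied tags by a constant and added no sampling noise. The shares are therefore not those of peaks that would be called at that depth. Scaled to the depth of WT replicate 2, 51102 of the 51504 peaks of WT replicate 1 met the threshold of their own list, while the list of WT replicate 2 held 29082.

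Compared with regions in all 4 lists, the newly listed regions were narrow, and most had 1 peak per library. Their merged width had a median of 250 bp, with 10% below 177 bp, 10% above 393 bp and extremes of 134 and 891 bp. Mutant-only regions with earlier Sox3 or with p63 measured 271 and 266 bp, regions in all 4 lists 455 bp and mirror regions 213 bp. A merged width spans the peaks of 2 lists in newly listed regions and of 4 in regions of all 4 lists, so 250 and 455 bp are not built alike. Peak widths within single lists were not compared for regions in all 4 lists. The median over all 102840 merged regions, which include those of 1 list only, was 233 bp, below that of newly listed regions. The peaks within newly listed regions had medians of 200 bp in mutant replicate 1 and 190 bp in mutant replicate 2, against 231 and 258 bp over all peaks of those lists. In 98.8% of the newly listed regions each mutant list contributed a single peak. This was common to the other classes, with 97.8% of mutant-only regions with p63 and 95.7% of regions in all 4 lists. Summits of the 2 mutant libraries lay a median of 36 bp apart and at most 50 bp apart in 62.3% of the regions. Other mutant-only regions were close to this, with a median of 33 bp and 65.4% (with p63) or 64.0% (earlier Sox3, no p63), while regions in all 4 lists had a median of 21 bp and 76.5%.

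Higher-ranked regions were wider, had closer summits and lay nearer to p63 sites and to shared Sox3 regions, but not to each other. With the regions split into 3 equal parts by mean percentile, the median width was 238, 247 and 266 bp from the lowest to the highest part, and the summit gap 50, 36 and 25 bp. The median distance to the nearest p63 site was 17037, 15372.5 and 13902 bp, and to the nearest region in all 4 lists 18596, 15846 and 14386 bp. Another newly listed region lay within 10 kb of 13.2%, 12.8% and 11.5%. The share of mutant replicate 1 peaks that passed when scaled to the depth of WT replicate 2 was 33.1%, 85.0% and 99.4%. Width, rank and passing at a lower depth all rest on the same tags and are not independent of each other.

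The strongest newly listed regions stood well above the median, and none had a named gene attached to it, because the files pair no peaks with genes. Positions are in GRCz10 (danRer10). The highest mean percentile belonged to chr17:418231-418987, a 757 bp region whose summits lay 1 bp apart, with 90 tags and a 16.9-fold enrichment in mutant replicate 1 and 76 tags and 15.9-fold in mutant replicate 2. Its nearest WT peak of 36 hpf was 2668 bp away and its nearest p63 site 52382 bp away. The next was chr21:38787368-38787731, with 59 and 61 tags, 24.7-fold and 22.2-fold enrichment, and a p63 site 20403 bp away. These were the 2 regions in the top 10% of both lists.

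The other 8 of the 10 highest ranked lay on 8 chromosomes. chr23:8241995-8242256 had 58 and 42 tags in mutant replicates 1 and 2. chr11:40978692-40978925 had 64 and 50 tags, with another newly listed region 251 bp away. chr14:40339535-40339840 had 59 and 37 tags, chr8:1970495-1970784 49 and 36, and chr18:8258773-8259048 45 and 35. In each of these the count was higher in mutant replicate 1. The exception among the 8 was chr10:211652-211996, with 56 and 61 tags and a p63 site 1693 bp and a WT Sox3 peak 1739 bp away. chr15:39594906-39595212 had 53 and 41 tags and lay 2253 bp from a region in all 4 lists. chr12:13244298-13244549 had 46 and 32 tags; a p63 peak that formed no site lay 185 bp from it, while its nearest p63 site was 61944 bp away.

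At the other end of the ranking, the 3 lowest regions had 10 to 16 tags in each mutant library. chr2:49171026-49171258 had 14 and 13 tags, 3.88-fold and 4.06-fold over background. chr16:23337982-23338206 had 10 and 10 tags and lay 52 bp from a region in all 4 lists and 100 bp from a WT peak. chr11:14311127-14311264 had 16 and 14 tags, 343 bp from a WT peak. The widest region was chr8:41328703-41329593 at 891 bp, with 22 and 30 tags. chr5:67229332-67230213 spanned 882 bp over a local background of 14.3 and 11.9 tags, so that 59 and 45 tags at the summit made only 3.92-fold and 3.56-fold. chr15:32208419-32209234 spanned 816 bp with summits 310 bp apart. The narrowest region, chr15:676483-676616, measured 134 bp and was singled out after its width was seen. The shortest peak in the list of mutant replicate 1 has this same length, so no newly listed region could be narrower.

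Some regions sat on the edge of the rule. In 88 regions a WT peak of 36 hpf ended at most 100 bp away, and in 8 at most 10 bp away. The nearest were chr20:40151374-40151626, chr18:47866752-47866959 and chr7:59685951-59686360, each 1 bp from a WT peak, with 11 to 23 tags in the mutant libraries. Just outside, chr17:6378585-6378823 was left out by 3 bp shared with a p63 peak of 24 hpf, chr1:49132727-49132990 by 3 bp shared with a p63 peak of 80% of epiboly, and chr16:14346487-14346900 by 5 bp shared with another of that stage. Their percentiles in mutant replicate 1 (58.8, 58.1 and 20.7) and mutant replicate 2 (72.7, 33.7 and 61.4) lay inside the range of the newly listed regions. The 3 highest mirror regions, listed in WT and not in mutants, were chr14:43712684-43713164 with 39 and 28 tags in WT replicates 1 and 2, chr5:7431157-7431420 with 18 and 29, and chr3:21810350-21810732 with 19 and 17.

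Newly listed regions lay a median of 15225 bp from the nearest p63 site, defined as a p63 region found in both libraries of at least 1 stage (31197 sites). The distance was at most 1 kb for 6.01% of the 5623 regions with a site on their sequence, at most 10 kb for 38.9% and at most 100 kb for 94.1%. Regions filtered for p63 cannot overlap a p63 site, so the classes filtered in the same way are set beside them. These were the mutant-only regions with earlier Sox3 and no p63, at 13273 bp and 41.5% within 10 kb, and the mirror regions, at 17637.5 bp and 28.9% within 10 kb. Against any p63 peak of any list the median was 5931 bp. The nearest sites were bound at 80% of epiboly in 77.3% of cases, at 24 hpf in 33.4% and at 36 hpf in 25.5%. Over all p63 sites these shares were 79.5%, 33.3% and 26.02%, so the stage of the nearest site followed the make-up of the p63 sites as a whole.

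The nearest to a p63 site were chr23:18955319-18955626 at 1 bp, and chr3:8595396-8595731 and chr7:46610322-46610624 at 4 bp each. Their tags were 18 and 20, 20 and 15, and 16 and 19 in mutant replicates 1 and 2. The 3 farthest were all on chromosome 4, at 1189255 bp (chr4:43187343-43187515), 1075537 bp (chr4:51676316-51676610) and 936123 bp (chr4:42934211-42934409). The second of them nonetheless lay 1657 bp from a p63 peak that formed no site and 841 bp from a WT Sox3 peak.

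The nearest region in all 4 lists was a median of 16362 bp away and within 10 kb for 38.2% of newly listed regions. Regions in all 4 lists lay closer to each other, at 9953 bp and 50.2% within 10 kb. The other mutant-only regions lay at 14132 bp (earlier Sox3, no p63) and 16861 bp (with p63), and the mirror regions at 25760 bp. The nearest Sox3 peak of either WT library at 36 hpf was 6098 bp away and within 10 kb for 66.0%, and the nearest Sox3 peak of 24 hpf 5491 bp away. The nearest other region of 36 hpf of any kind was 3013 bp away. It was in all 4 lists in 22.3% of cases, in mutant replicate 1 alone in 25.8% and mutant-only in 13.7%, beside 21.9%, 25.3% and 13.0% of all regions. For regions in all 4 lists, the nearest neighbour was again in all 4 lists in 31.0% and in mutant replicate 1 alone in 19.9%. By this measure the neighbourhood of newly listed regions resembled the regions at large, and shared regions had shared neighbours more often.

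**Figure D4:**
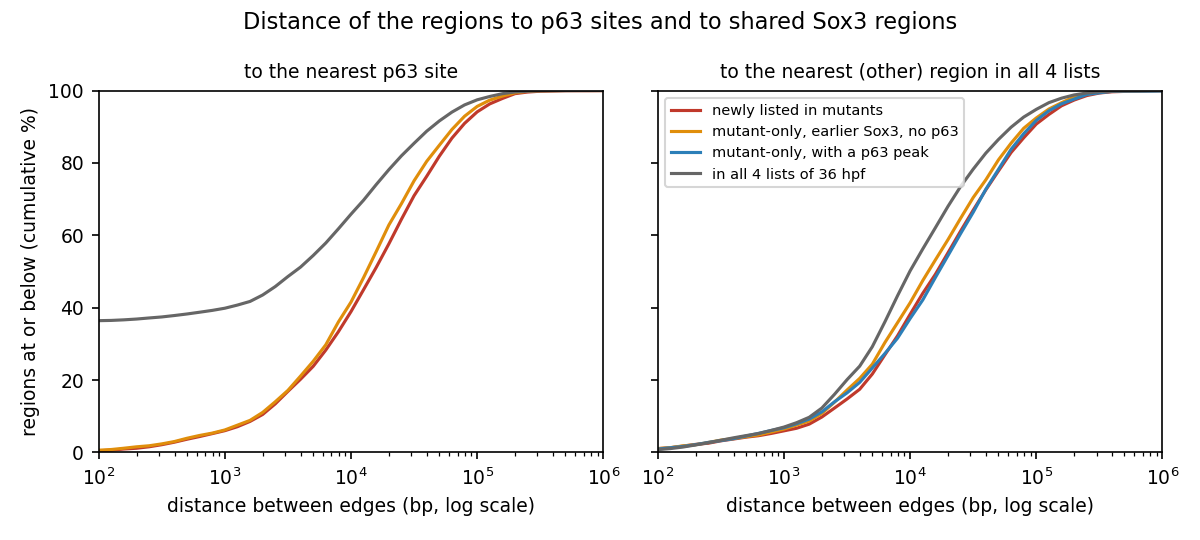
Cumulative share of regions (%) against the distance between edges (bp, log scale) to the nearest p63 site (left, without regions chosen for a p63 peak) and to the nearest region in all 4 lists other than itself (right). Newly listed regions (red) have medians of 15225 and 16362 bp; the curve of regions in all 4 lists starts high on the left because many overlap a p63 site.

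Most newly listed regions stood alone. The nearest other one was a median of 59862 bp away, within 10 kb for 12.5% and within 100 kb for 64.9%. Other classes lay within 10 kb of a newly listed region about as often: 452 of 4522 mutant-only regions with p63, 12.4% of those with earlier Sox3 and no p63, and 13.5% of regions in all 4 lists. The 12.5% moved with the number of regions, with 2.96% at equal list lengths, 22.8% without mutant replicate 1, 37.0% without mutant replicate 2 and 18.1% without WT replicate 1. Joined across gaps of at most 10 kb, 4974 regions (87.6%) stayed single, 618 formed 309 pairs, 75 formed 25 groups of 3 and 8 formed 2 groups of 4. The densest window of 100 kb, chr24:23113695-23213694, held 8 newly listed regions among 28 regions of 36 hpf. chr22:37515838-37615837 held 7 of 21 and chr7:36959895-37059894 held 6 of 29. In these 3 windows the mutant libraries had 17 to 28 peaks each and the WT libraries 3 to 21. The windows were chosen for their newly listed regions, and each such region adds a peak to both mutant lists and none to the WT lists. The mutant lists were also longer, so a higher mutant number here follows at least in part from the choice. Median percentiles of the newly listed regions in the windows were 53.9, 54.2 and 39.9 in mutant replicate 1 and 23.9, 17.2 and 37.0 in mutant replicate 2.

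Across chromosomes 1 to 25 the density ranged from 2.30 regions per Mb on chromosome 4 to 5.42 on chromosome 24, with a median of 4.29. Chromosome 4 was also lowest for regions in all 4 lists (7.88 per Mb), which were densest on chromosome 23 (21.4 per Mb). Newly listed regions formed 37.1% (chromosomes 3 and 22) to 47.0% (chromosome 9) of the mutant-only regions of a chromosome. Another 106 regions (1.87%) lay on sequences outside the 25 chromosomes.

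**Figure D5:**
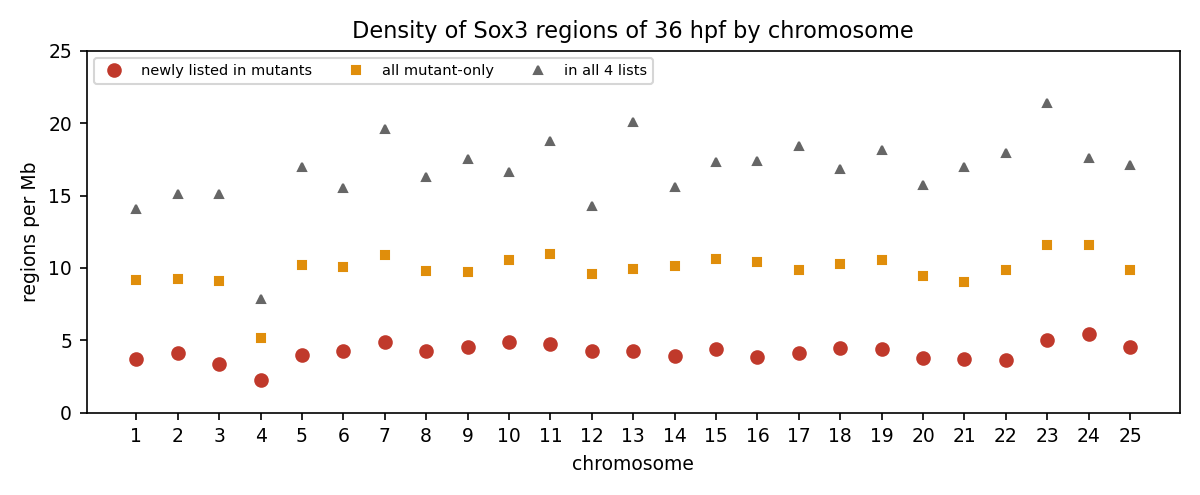
Regions of 36 hpf per Mb of chromosome, for newly listed regions (circles), all mutant-only regions (squares) and regions in all 4 lists (triangles). Newly listed regions range from 2.30 per Mb on chromosome 4 to 5.42 on chromosome 24.

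Peaks beside the regions were compared between genotypes, but in the same lists that chose the regions. A WT peak that overlapped a region removed it from the class, while an overlapping mutant peak became part of it. The flanks are therefore not free of the selection, least of all close to the regions. The tests below cannot separate genotype from this selection at any of the distances, and no conclusion on genotype is drawn from them. Of the Sox3 peaks outside newly listed regions, 11.4% and 12.1% lay within 10 kb of one in mutant replicates 1 and 2, against 11.4% and 12.8% in WT replicates 1 and 2. The means were 11.8% ± 0.491 in mutants and 12.1% ± 1.01 in WT embryos (SD, n = 2 libraries each), a difference of -0.298 percentage points (exact permutation test, two-sided, p = 1; the smallest p that 2 against 2 libraries allow is 0.333). The difference was smaller than the spread between replicates. Within 1 kb the shares were 1.67% ± 0.0490 in mutants and 1.45% ± 0.0454 in WT embryos, a difference of 0.213 points in which the mutant libraries lay above both WT libraries (exact permutation p = 0.333, n = 2 each). Within 50 kb the difference was -0.945 points (exact permutation p = 0.667, n = 2 each), so its sign differed between distances. The lists were not made equally long for these distances. Of p63 peaks, 9.21% to 9.93% lay within 10 kb of a newly listed region, against 10.8% to 12.8% of the peaks of the 6 Sox3 lists; this difference between antibodies was not tested.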

How the data were processed

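The authors aligned reads with Bowtie to GRCz10 (danRer10) and called narrow peaks with MACS2 in each library, with no control library stated; versions are not given in the sources used here. The deposited lists hold a score (the whole part of 10 times −log10 q), a fold enrichment (a ratio of summit pileup to local background, pseudocount 1) and −log10 p and −log10 q, none scaled between libraries; the authors' summit is an offset from the peak start. Summit tags, local background and library tags (1.04 to 25.1 M, an upper bound for p63 36 hpf replicate 2) were recovered from fold and −log10 p by the Poisson formula, for a genome of 1.5 Gb, with errors of at most 2.17e-04 in −log10 p. They estimate the units counted in the call; read totals listed by the study differ from them and were not used here.

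All 12 lists were used, grouped by antibody, stage and genotype. Distances are between edges on 1 sequence. A region was scored by its best peak in each list. Scaling to another depth multiplied pileup and background by the ratio of tags. For the shares passing at a WT depth, a peak passed if its p met the highest p of the deposited WT list. For the counts with every list scaled to the shallowest, it had to meet the highest p of its own list. Medians over regions carry no test; library shares were compared by exact permutation tests. Replicates are separate samples by their labels. Regions named on chromosomes 1 to 25 were the 10 highest and 3 lowest by mean percentile of −log10 q over the mutant lists, the 3 widest, the 3 nearest to and 3 farthest from a p63 site, the 3 densest windows of 100 kb, the 3 highest mirror regions, and those at the edges of the rule. The members and rules were chosen with earlier results of these data known. No genome of this build was used here, so no sequence or gene is given. The scripts, tested on simulated lists, ran in Python 3.11.15 with numpy 2.4.6, pandas 2.3.3, scipy 1.17.1 and matplotlib 3.10.9. Alternatives changed the merging, thresholds, list length, depth, filters and libraries.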

Additional observations from a re-analysis of the deposited data

How the results depend on the processing

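The number of newly listed regions (5675) depended most on the lists compared. It was 1924 with a −log10 q of at least 10 in the mutant lists only (324 mirror regions), 550 with equal list lengths (360 mirror regions), and 6455 to 25135 when 1 of the 4 libraries was left out (230 to 8701 mirror regions; 25135 without mutant replicate 2, 8701 without WT replicate 2). With −log10 q of at least 10 in every list, 28 mirror regions were left. Median width was 235 bp for windows of 100 bp on either side of the summits, where the window and the summit gap set the width. It was 258 bp with gaps of 200 bp merged. With −log10 q of at least 10 asked of all lists or of the mutant lists only it was 307 bp and 264 bp. It was 313 bp with equal lengths and 168 to 262 bp without 1 library. The same 3 settings on q and length gave percentiles of 61.6, 58.0 and 73.9 in mutant replicate 1. In mutant replicate 2 they gave 51.1, 49.3 and 63.8. These are percentiles of the deposited lists, and dropping weaker mutant peaks raises them by construction. Without 1 library the percentiles were 23.1 to 46.9 in mutant replicate 1 and 22.1 to 31.9 in mutant replicate 2. The distance to a p63 site was 19700.5 bp at a fold of at least 5 and 31613 bp at −log10 q of at least 10 in every list. Both cuts also applied to the p63 lists, so the sites were found again from fewer peaks. With −log10 q of at least 10 in the mutant lists only, which left the sites unchanged, the distance was 14197.5 bp. It was 17745 bp with no other peak within 1 kb, 5931 bp to any p63 peak and 14957 to 17221 bp without 1 library. The distance to regions in all 4 lists, found again from the cut lists, was 24327 bp with −log10 q of at least 10 in every list. With equal lengths it was 22789 bp. Without 1 library it was 9983 to 22479 bp, but then to regions in all remaining lists, a different set of targets. The share within 10 kb of another newly listed region was 14.6% to 37.0% without 1 library. Where 1 library of a genotype was left out, the rule had fewer lists to satisfy, and the number grew each time. The flank difference of -0.298 points was 0.118 with equal lengths, 0.213 within 1 kb, -0.945 within 50 kb, and -1.01 to 0.417 without 1 library (0.0492 without mutant replicate 1, 0.417 without WT replicate 2), so its sign is not settled. With a replicate block it was -0.298 as well (exact permutation p = 1), but a block of so few libraries allows no small p. The flanks come from the lists that chose the regions, so no conclusion on genotype is drawn from these values. Replicate 1 minus replicate 2 was -0.694 points in mutants and -1.43 in WT embryos, but 2 shared numbers do not establish a pairing. The depth of the WT libraries limits what absence from their lists can show.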
